A study of Rattus norvegicus with 15 samples.

Results

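Irf7, Irf1, Stat2, Mx1, Mx2 and Ifit2 are genes of the interferon response, and their transcripts were followed in the olfactory epithelium, the nasal sheet of sensory neurons and supporting cells. A probe belonged to this set when its annotated gene symbol was one of these 6, which gave 7 of the 41012 probes on the array (2 probes for Ifit2 and 1 for each other gene). The tissue came from 8 Brown Norway rats aged 6 weeks, males 1, 2, 5 and 6 and females 3, 4, 7 and 8. RNA of the nostrils labelled A and B was hybridized separately for 7 rats and that of nostril A alone for male 1, which gave 15 arrays (7 male and 8 female). Which letter is left or right is not in the labels, nor is the supplier of each rat. The labels give no treatment and no genotype beyond the strain, and the study describes the animals as naive to odorants. Whether they had met an infection is not in the labels.

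Interferons are secreted proteins that warn tissue of viruses. Type I interferons bind a receptor on the cell surface whose kinases activate Stat2. It joins Irf9 in a complex that enters the nucleus and binds the interferon-stimulated response element (ISRE) in promoters. Among the genes switched on are Irf7, which feeds back to make more interferon, and antiviral effectors such as the Mx and Ifit proteins. Interferon gamma acts on promoters that hold the gamma-activated site (GAS) and induces Irf1, a regulator of antigen presentation genes. The nasal lining meets inhaled viruses directly.

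Levels are given as log2 of the signal over the median signal of the array, with a floor at -3.32, and levels of different probes are not set against each other. The array medians ran from 57.4 to 83.4 intensity units, and 26233 to 28741 probes per array lay well above background. All 8 probes of mature olfactory neuron markers were well above background on each array, as were both sustentacular cell probes. The tissue also held other cells: 14 to 18 of 22 leukocyte marker probes were detected per array, with a summed level of 316 to 571. The rats differed in red blood cell markers, the means of the Hbb and Alas2 probes running from 5.46 in female 7 to 9.41 in male 6. Fewer cells of a type and less RNA per cell cannot be told apart in such samples.

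Of the 7 probes, 5 were expressed, that is, well above background on at least 11 of the 15 arrays, and these 5 (Irf7, Irf1, Stat2, Mx2 and the Ifit2 probe A_44_P696994) were detected on all 15. Of all probes, 65.1% were expressed. Mx1 was weakly expressed, with a signal well above background on 3 arrays. The other Ifit2 probe, A_44_P410016, was detected on 1 array, that of nostril B of female 4. The weakly expressed probes did not enter the tests, which required detection on at least 7 arrays, except where that filter was dropped for the sexes as an alternative.

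**Figure D1:**
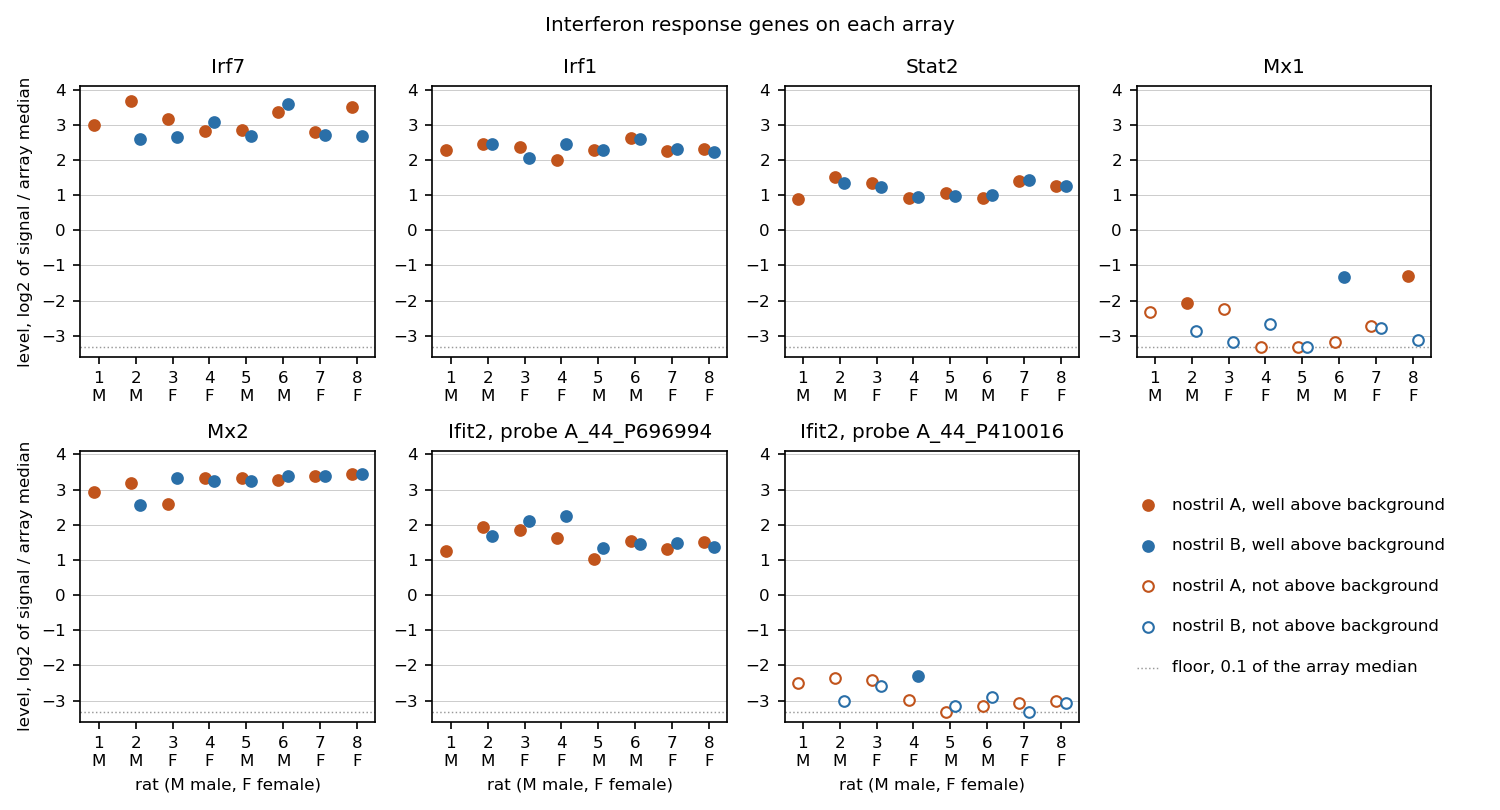
Level of each member probe (log2 of signal over array median, vertical axis) in each rat (horizontal axis), with nostril A in orange and nostril B in blue. Open points were not well above background, and the dotted line is the floor at -3.32. Irf7 shows the widest gaps between the nostrils of single rats among the probes detected on all 15 arrays, the points of Stat2 within a rat nearly coincide, and Mx1 is filled on 3 arrays.

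Irf7 is the transcription factor that drives the main wave of type I interferon production. Its probe, for NM_001033691, lies on the minus strand at chr1:201607889-201607948 of build rn3, the build of the array annotation. That annotation gives no exon or untranslated region for any probe. The 60-base probe read on the array is shown because, among the members detected on all 15 arrays, the largest differences between nostrils were measured with it:
Irf7 probe: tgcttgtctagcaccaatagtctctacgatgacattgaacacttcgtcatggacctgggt

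In males, Irf7 stood at 3.00 in nostril A of rat 1, at 3.66 and 2.59 in nostrils A and B of rat 2, at 2.86 and 2.67 in rat 5 and at 3.37 and 3.59 in rat 6. In females it stood at 3.16 and 2.65 in rat 3, at 2.82 and 3.08 in rat 4, at 2.78 and 2.72 in rat 7 and at 3.50 and 2.68 in rat 8. The highest and the lowest array of the whole set were thus the nostrils of 1 animal, male 2. The male and female ranges overlapped.

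The gap between the nostrils of male 2 was 1.07 (2.11-fold) and that of female 8 was 0.82 (1.76-fold), both with nostril A higher. In male 2, 1.15% of the 27574 tested probes had a larger gap, and in female 8, 1.12%. The other rats had gaps of 0.06 to 0.51. Taking the nostrils of 7 rats together, the SD between nostrils was 0.40 for Irf7, larger than for 93.3% of tested probes, whose median was 0.12. Its range over the 8 rat means was 0.73, larger than for 75.7% of tested probes, and 0.38 without male 6. The widest gap within an animal thus exceeded the range of the rat means.

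Nostril A was higher in 5 of 7 rats. The mean difference A minus B was 0.31 with an SE of 0.16 (limma with rat as a block, adjusted p = 0.781, n = 7 rats), and 0.18 without male 2. It did not pass the 1% threshold, and of the 27574 tested probes none did (0%), while 1623 had an unadjusted p under 0.05. Of the 5 tested members, 0 passed. Since the letters need not mean the same side in each rat, the nostrils were also compared within single rats, with the gaps of the other rats as the error, an analysis added after the data were seen. The unadjusted p of Irf7 was 0.0129 in male 2 and 0.0847 in female 8, and after adjustment none of the 35 tests of members passed 1%. Over the 193018 tests of all probes 341 passed (0.177%). Of these, 324 were in female 3, whose nostrils lay on different slides, and the other 17 in female 4, so that 0 were in male 2 or female 8.

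Some other interferon-induced genes followed Irf7 across the nostrils. Among the 34 tested probes of interferon-induced effectors, 4 probes chosen after their values were seen had gaps that tracked those of Irf7. Their r was 0.92 to 0.97 over the 14 arrays of 7 rats, each array taken as its deviation from the mean of its rat. The deviations of the nostrils of a rat mirror each other, so each r rests on 7 gaps. G1p2 (now Isg15), a ubiquitin-like protein attached to other proteins in infected cells, was 1.58 higher in nostril A of male 2 and 1.24 higher in nostril A of female 8. Oas1 and Oas1i, which make the short oligoadenylates that activate RNA degradation, differed by 1.06 and 0.87 in male 2 and by 1.07 and 0.92 in female 8. Oas genes are close copies of each other, so cross-hybridization between their probes cannot be told apart from separate changes. Sp110, a nuclear body protein, differed by 0.49 and 0.32. Other effectors ran the other way in male 2, where Ifitm1 differed by -0.85 and Isg20 by -0.76.

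The whole effector list can be set beside all tested probes. In female 8, 94.1% of the 34 effector probes were higher in nostril A, against 35.4% of all tested probes, and their median difference was 0.31 against -0.05. In male 2 the share was 82.4% against 65.1%, and the median 0.31 against 0.05. In female 4, where Irf7 was 0.26 lower in nostril A, 26.5% of effector probes were higher in A against 46.0% of all, with a median of -0.24. The share was 64.7% against 49.6% in female 3, 73.5% against 61.0% in male 5, 38.2% against 32.5% in male 6 and 41.2% against 46.9% in female 7. In male 6 the median of the list and that of all probes were both -0.08.

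The 13 probes of antigen processing genes were all higher in nostril A in female 8 and in male 5, with medians of 0.18 and 0.09, where 35.4% and 61.0% of all tested probes were higher. In female 3, 10 of 13 were higher in A against 49.6% of all, and in male 2, 9 of 13 against 65.1% of all, with medians of 0.13 and 0.04. In the other rats they ran the other way, with 2 of 13 higher in A in female 4, 1 of 13 in male 6 and 2 of 13 in female 7. No test stands behind these shares, since genes are not replicates.

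The summed level of leukocyte markers was 429 in nostril A and 361 in nostril B of male 2, where 87.5% of the 16 tested probes were higher in A, against 65.1% of all tested probes, with a median difference of 0.35. In female 8 it was 349 and 339, and 8 of the 16 were higher in A, against 35.4% of all. Male 5, with an Irf7 gap of 0.19, had a leukocyte shift like that of male 2, with 87.5% higher in A and a median of 0.39. The median difference of the list in female 8 was 0.02. The probes of the defining marker Ptprc disagreed there. Probe A_44_P135213, detected on 14 arrays, differed by 0.35 in male 2 and 0.55 in female 8, and A_44_P414258, detected on 7, by 0.25 and -0.47. The third, A_44_P236144, was detected on 0. Bone markers had a summed level of 4742 and 3577 in nostrils A and B of male 2, 7494 and 5501 in male 5 and 4180 and 4727 in female 8. The part of leukocytes and of bone in the gaps was not tested.

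**Figure D2:**
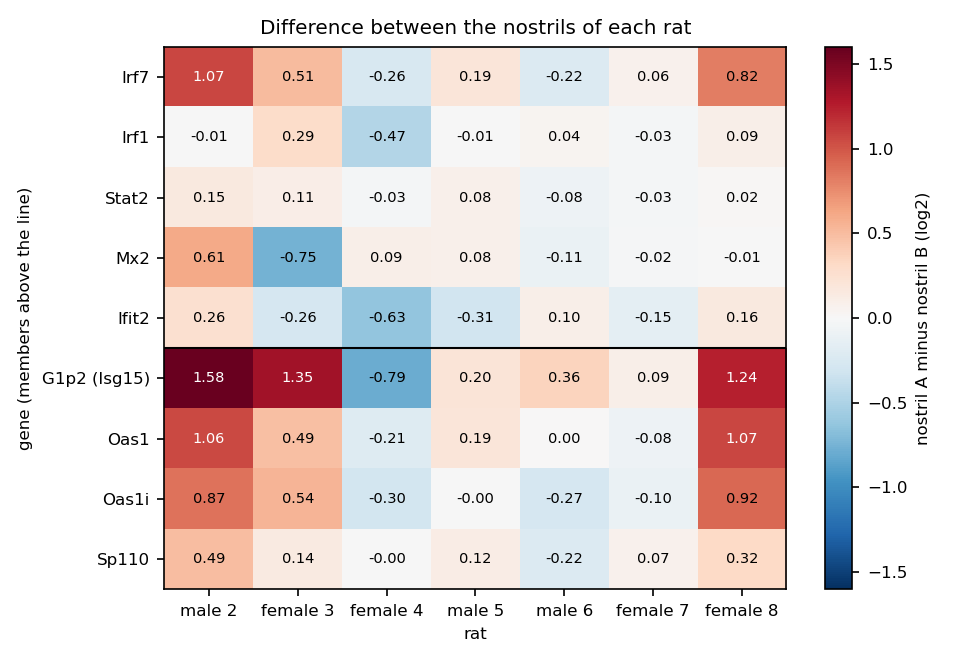
Difference between nostril A and nostril B (log2, color and printed value) for the 5 tested members, above the line, and 4 other interferon-induced genes, below it, in the 7 rats with both nostrils measured. Irf7 and the genes below the line are higher in nostril A in male 2 and female 8, whereas the gaps of Stat2 stay within 0.15 in each rat.

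The small gaps of Stat2 tracked those of Irf7 with r = 0.81 over the same 7 gaps, while r was 0.38 for Irf1, 0.29 for Ifit2 and 0.19 for Mx2. These are descriptions over arrays that share rats and slides. A gap of over 1.5-fold, a size chosen after the data were seen, was reached by Irf7 and Mx2 in male 2 (2 of 5 members, against 4.71% of tested probes). It was reached by Mx2 in female 3 (1 of 5, against 8.97%), by Ifit2 in female 4 (1 of 5, against 9.07%) and by Irf7 in female 8 (1 of 5, against 3.05%). None of the 5 members reached it in male 5, male 6 or female 7, where 5.2%, 6.63% and 3.87% of tested probes did. With a single array per nostril these counts have no replicate check.

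The promoters of the members were read from RefSeq (build GRCr8, 250 bases before to 50 after each gene start), and 4 members had an entry: Irf7, Irf1, Stat2 and Mx1. The ISRE core was searched as GAAANNGAAA and the GAS as TTCNNNGAA, on both strands. The first was found in 3.92% of all 33469 promoters and the second in 8.87%. The stretches around the member matches, with the match in capitals, show where these letters lie. The Irf7 stretch is chr1:205800053-205800122 on the minus strand, and its match, 69 bases before the gene start, reads as the reverse complement of the searched letters. The Irf1 stretch is chr10:38417763-38417831 on the plus strand, with a GAS match 142 bases before the start.
Irf7 promoter: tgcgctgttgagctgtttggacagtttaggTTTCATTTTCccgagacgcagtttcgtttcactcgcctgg
Irf1 promoter: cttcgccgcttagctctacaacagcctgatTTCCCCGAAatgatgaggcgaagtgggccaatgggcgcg

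In these windows Irf7 held no GAS, Irf1 no ISRE core, and Stat2 and Mx1 neither motif. Of 23 promoters of interferon-induced effectors with an entry, 17 (73.9%) held the ISRE core. Of the 4 genes that followed Irf7 across the nostrils, G1p2 had no entry, and the other 3 are shown for comparison, Oas1 under its current symbol Oas1a at chr12:41330405-41330460 on the plus strand, Oas1i at chr12:41285170-41285225 on the plus strand and Sp110 at chr9:93670688-93670737 on the minus strand. Capitals mark the ISRE core, which Oas1a and Oas1i each hold as 2 overlapping matches. Herc6, whose probe had r = 0.75 with Irf7 over the 15 arrays, had an entry with 0 matches of the ISRE core.
Oas1a promoter: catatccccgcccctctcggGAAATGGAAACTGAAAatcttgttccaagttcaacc
Oas1i promoter: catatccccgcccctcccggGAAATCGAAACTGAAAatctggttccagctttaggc
Sp110 promoter: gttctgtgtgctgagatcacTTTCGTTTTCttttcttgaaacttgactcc

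Mx1 encodes a dynamin-like GTPase that blocks influenza and related viruses in the nucleus of rodent cells. Its probe, for NM_173096, lies at chr11:37497220-37497279 on the minus strand of rn3. Its sequence is printed because its detection fell on the arrays highest in Irf7:
Mx1 probe: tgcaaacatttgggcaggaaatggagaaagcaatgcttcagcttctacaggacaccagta

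The processed intensity of Mx1 was 16.7 in nostril A of male 2, 24.3 in nostril B of male 6 and 30.0 in nostril A of female 8, the 3 arrays on which it was well above background. On the other 12 arrays it ran from 4.53 to 14.6, where the lowest intensity called well above background was 10.01 to 13.71. The same 3 arrays held the 3 highest levels of Irf7, at 3.66, 3.59 and 3.50, and the fourth array, nostril A of male 6 with Irf7 at 3.37, had an Mx1 intensity of 6.52. In male 6 the nostrils differed in Mx1 far more than in Irf7, which was 0.22 higher in nostril B.

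Nostril B of male 6 also had the highest leukocyte markers of all arrays, with a mean of 1.29 over the 22 probes against 0.37 to 0.83 on the others. The B cell marker Cd79b reached 3.04 there and the T cell marker Cd3d 3.28. Other markers were higher in nostril A of male 6, among them Cd4 by 0.43, Itgam by 0.41, Csf1r by 0.22 and Cd68 by 0.18. Of the 16 tested leukocyte probes, 37.5% were higher in A in male 6, against 32.5% of all tested probes. The T cell marker Cd3e, detected on 2 arrays, was 1.51 higher in nostril B of male 6 and 2.34 higher in nostril A of female 8. The means in nostril A of male 2 (0.70) and nostril A of female 8 (0.57) lay within the range of the other arrays. The part of these cells in the Mx1 signal was not tested.

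**Figure D3:**
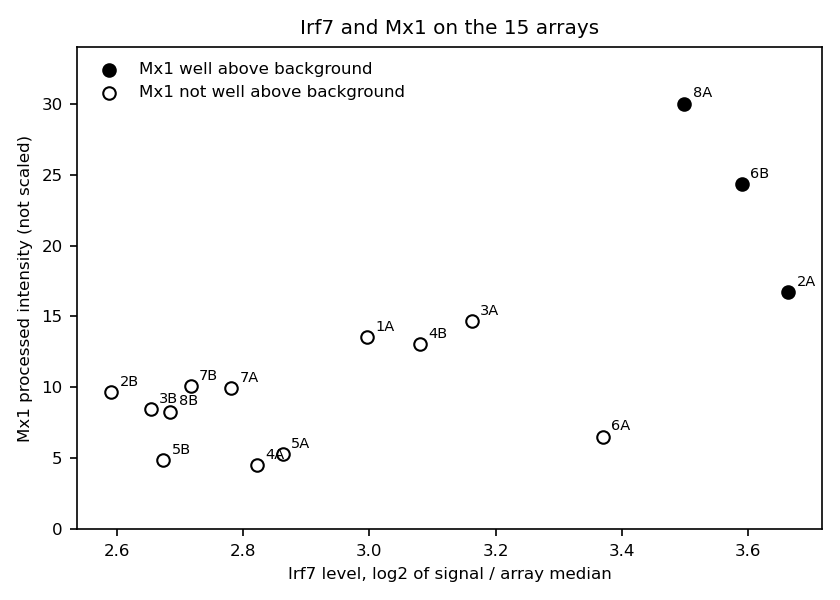
Level of Irf7 (log2 of signal over array median, horizontal axis) and processed intensity of Mx1 (vertical axis, not scaled between arrays) on the 15 arrays, each labelled by rat number and nostril. The 3 filled points, on which Mx1 was well above background, are the 3 arrays with the highest Irf7, at 3.50 to 3.66.

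Stat2 is the subunit that gives the type I interferon complex its activating domain. Its probe, for NM_001011905, spans chr7:1579523-1579779 of rn3 on the plus strand. It is shown as the member that differed between animals:
Stat2 probe: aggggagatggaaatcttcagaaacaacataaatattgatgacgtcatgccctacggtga

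Stat2 stood at 0.88 in nostril A of male 1, at 1.50 and 1.35 in the nostrils of male 2, at 1.07 and 0.99 in male 5 and at 0.92 and 1.01 in male 6. In females it stood at 1.35 and 1.24 in rat 3, at 0.92 and 0.95 in rat 4, at 1.41 and 1.44 in rat 7 and at 1.27 and 1.25 in rat 8. Both nostrils of an animal gave nearly the same value. The SD between nostrils was 0.06, and 9.89% of tested probes had a smaller one.

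In order of their means the rats were male 1 (0.88), female 4 (0.93), male 6 (0.97), male 5 (1.03), female 8 (1.26), female 3 (1.29), male 2 (1.42) and female 7 (1.42). The largest step, 0.23, lay between male 5 and female 8, and the next, 0.13, between female 3 and male 2. The other neighbours differed by at most 0.06, about as much as the SD between nostrils. Both sexes occurred on either side of the largest step, and so did rats that shared a slide (males 1 and 2 on slide 1, females 3 and 4 on slide 2). Both rats of slide 3 (males 5 and 6) lay below it and both rats of slide 4 (females 7 and 8) above it.

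Between rats of 1 sex, with the gap between nostrils as the error, Stat2 had an F of 13.2 (limma, adjusted p = 0.00985), with a fold range of 1.46 over the 8 rats. It was the 1 member of 5 tested that passed 1%, as did 2.79% of the 27574 tested probes. The call was lost with slide as a random block (adjusted p = 0.0305), over rats sharing a slide (adjusted p = 0.0995), with normexp and quantile normalization, which change the background correction and the scaling together (adjusted p = 0.0185), and on the deposited ratio table (adjusted p = 0.0146). The F was 10.8 with slide as a random block, 12.4 over rats sharing a slide, 8.71 with normexp and quantile normalization and 14.4 on the ratio table. The range over the rats was 0.54 before and after slide means were subtracted, and 0.39 with normexp and quantile normalization. The call was also lost when male 2, 5 or 6 or female 4, 7 or 8 was left out (adjusted p of 0.0123 to 0.0461). Ifit2 had the next adjusted p, 0.0688, followed by Mx2 with 0.276, Irf1 with 0.493 and Irf7 with 0.582.

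Red blood cell markers divided the rats at the same place. Their mean over 2 probes was 8.51 in male 1, 8.69 in female 4, 8.74 in male 5 and 9.41 in male 6, against 6.58 in male 2, 5.74 in female 3, 5.46 in female 7 and 6.64 in female 8. The 4 rats rich in red cell transcripts were those below the largest step in Stat2. Among these 4, male 6 was highest in red cell markers with Stat2 at 0.97, and male 1 was lowest in both, with Stat2 at 0.88. Among the other 4, female 8 was highest in red cell markers and lowest in Stat2 (1.26), and female 7 was lowest in red cell markers with Stat2 at 1.42. No correlation between them is given, because the rats fall into 2 separate clusters of 4. The part of blood in the Stat2 difference was not tested.

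Best5 (now Rsad2), the antiviral protein viperin, was high in the rats low in Stat2. It was the effector with the widest range over the rats, from 1.34 in female 7 to 4.24 in female 4, a 7.45-fold range (adjusted p = 0.00126, and 0.00517 with slide as a random block). It stood at 3.40 to 4.24 in the 4 rats high in red cell markers and at 1.34 to 2.29 in the other 4. Ifit1, a paralog of Ifit2 that binds foreign RNA caps, stood at 1.79 to 2.76 and at 0.91 to 1.48 in the same rats on probe A_44_P768625, which did not pass 1% (adjusted p = 0.0118). Of its other probes, A_44_P450075 was detected on 10 arrays (adjusted p = 0.172) and A_44_P236197 on 0. Both genes are named for their wide ranges over the rats. Some other effectors did not divide the rats this way, such as Ifi27l, lowest in female 4 (7.13) and highest in male 2 (7.67), and Ifi35, lowest in female 4 (3.40) and highest in female 7 (3.77).

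**Figure D4:**
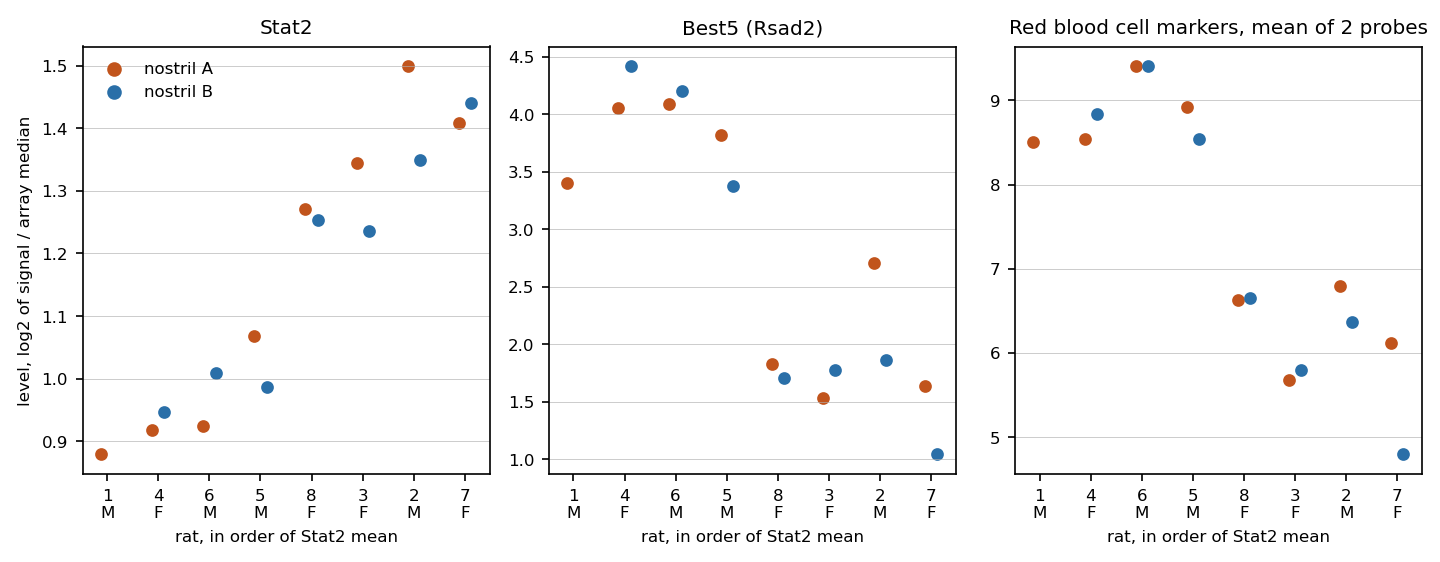
Levels (log2 of signal over array median, vertical axes on separate scales) of Stat2, of Best5 (Rsad2) and of the mean of the red blood cell probes Hbb and Alas2 on each array, with rats placed in order of their Stat2 mean (M male, F female). In the Stat2 panel the nostrils of 1 rat lie close together. The 4 rats lowest in Stat2, with means of 0.88 to 1.03, have the 4 highest rat means in each of the other panels.

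Irf1 is a transcription factor induced mainly by interferon gamma. Its probe, for NM_012591, spans chr10:39233708-39233942 of rn3 on the plus strand. In males the 7 arrays ran from 2.27 to 2.62, the highest being both nostrils of rat 6 (2.62 and 2.58), and in females the 8 arrays ran from 1.98 to 2.46, the extremes being nostrils A and B of female 4. The female mean of 2.24 ± 0.03 (SD, n = 4) lay 0.16 below the male mean of 2.41 ± 0.16 (SD, n = 4), which did not pass the threshold (limma, SE 0.08, adjusted p = 0.360). The difference was -0.04 with slide as a fixed block and -0.10 without male 6. Of the 5 tested members Irf1 had the smallest range over the rats in the main processing, 0.39, and 0.25 without male 6. After slide means were subtracted its range was 0.32, and that of Mx2 was smaller, at 0.22.

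Irf1 and Irf7 ran together over the 8 rats with Pearson r = 0.82 and Spearman rho = 0.55, the highest Pearson r among the 10 pairs of tested members. Male 6 was highest in both, and without the 2 rats farthest from the median of Irf7 the r was 0.54. The other 9 pairs had r from -0.34 to 0.27. These values moved with the processing: once slide means were subtracted, r was 0.84 for Irf1 and Irf7, 0.81 for Stat2 and Ifit2, 0.63 for Irf1 and Ifit2 and -0.65 for Stat2 and Mx2. Without the 2 rats farthest from the median of Irf1, Irf1 and Ifit2 had r = -0.97. These are descriptions over rats that share slides, without a test. Male 6 also had the highest mean of leukocyte markers (1.02 against 0.39 to 0.65 in the other rats).

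Mx2 is the second dynamin-like GTPase, which in rodents acts in the cytoplasm against viruses such as vesicular stomatitis virus. Its probe, for NM_134350, spans chr11:37626509-37628404 of rn3 on the plus strand, a span longer than the 60 bases of the probe:
Mx2 probe: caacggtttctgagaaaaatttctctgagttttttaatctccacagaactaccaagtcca

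In males Mx2 stood at 2.93 in rat 1, at 3.18 and 2.57 in rat 2, at 3.33 and 3.25 in rat 5 and at 3.27 and 3.38 in rat 6. In females it stood at 2.58 and 3.33 in rat 3, at 3.33 and 3.24 in rat 4, at 3.37 and 3.39 in rat 7 and at 3.44 and 3.45 in rat 8. The 4 lowest arrays were those of slide 1, which held male 1, male 2 and nostril A of female 3. They ran from 2.57 to 3.18 and did not overlap the other 11 arrays, at 3.24 to 3.45. Such a separation of slide 1, in either direction, was seen for 1 of 5 members and for 0.979% of tested probes.

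Within female 3, nostril A on slide 1 read 2.58 and nostril B on slide 2 read 3.33. The range of Mx2 over the rats was 0.57, and it fell to 0.22 once slide means were subtracted. What the slides differed in was not tested, and males 1 and 2 cannot be told apart from their slide.

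**Figure D5:**
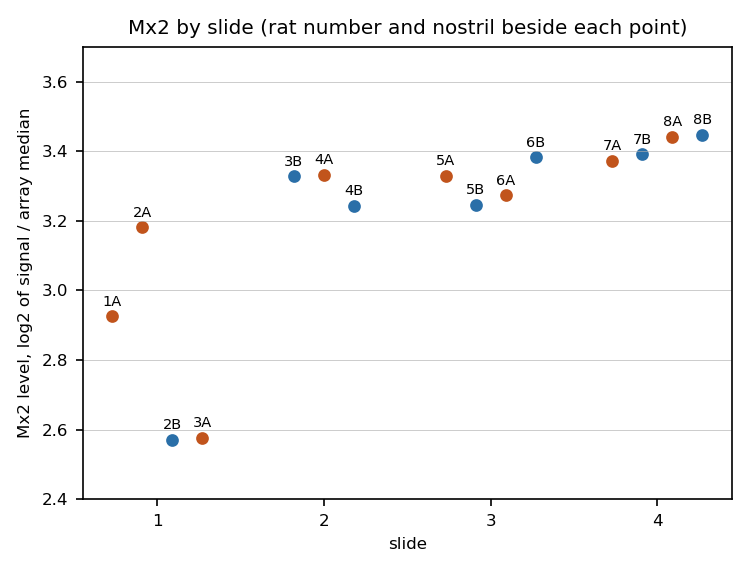
Level of Mx2 (log2 of signal over array median, vertical axis) on the arrays of each of the 4 slides (horizontal axis), nostril A in orange and nostril B in blue. The 4 arrays of slide 1, at 2.57 to 3.18, lie below all others, and female 3 appears on slides 1 and 2.

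Ifit2 binds viral RNA and restrains translation. Both probes are for NM_001024753 on the plus strand of chromosome 1, A_44_P410016 at chr1:238727589-238727648 and A_44_P696994 at chr1:238728967-238729026, with starts 1378 bases apart. They disagreed in detection, since the downstream probe was well above background on all 15 arrays and the upstream probe on 1. On the downstream probe, the 7 male arrays ran from 1.03 to 1.95 with a median of 1.44, and the 8 female arrays from 1.32 to 2.25 with a median of 1.57. The highest array was nostril B of female 4, the array on which the upstream probe was detected, while nostril A of that animal read 1.63.

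The rat means of Ifit2 ran from 1.18 in male 5 to 1.98 in female 3 (0.80, or 1.74-fold). That was the widest range among the 5 tested members in the main processing. With normexp and quantile normalization it fell to 0.57, below the 0.65 of Irf7. After slide means were subtracted it was 0.59, below the 0.71 of Irf7. Females 3 and 4 (1.98 and 1.94) and male 2 (1.81) lay above the other 5 rats, at 1.18 to 1.49. All arrays of females 3 and 4 and male 2 were on slides 1 and 2, as was male 1, at 1.24. The slide means were 1.68, 2.00, 1.34 and 1.42 for slides 1 to 4. Between rats of 1 sex the F was 4.69, and 2.14 over rats sharing a slide (limma, adjusted p = 0.463). The part of the slides was not tested. The female mean was 1.69 ± 0.31 (SD, n = 4) and the male mean 1.43 ± 0.29 (SD, n = 4), and the difference of 0.26 did not pass the threshold (limma, adjusted p = 0.494).

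No member differed between the sexes at 1%. Of the 5 tested members 0 passed, against 12 of the 27625 tested probes (0.0434%). An unadjusted p under 0.05 (limma) was reached by none of the 5, against 17.1% of all tested probes. Irf1 fell under 0.05 with 75th percentile scaling, with normexp and quantile normalization, without male 1 and with 15 arrays taken as independent. Irf7 was 0.17 lower in females (SE 0.14, adjusted p = 0.572), Stat2 0.15 higher (SE 0.14, adjusted p = 0.612) and Mx2 0.16 higher (SE 0.14, adjusted p = 0.579). Male and female rat means overlapped for all 5. With slide as a fixed block the differences of Irf7 and Mx2 turned to 0.08 and -0.32, still short of the threshold, and that of Mx2 was 0.07 with normexp and quantile normalization. Single rats moved these differences by over 1.5-fold. That of Irf7 was -0.04 without male 6, -0.11 without female 7 and -0.28 without male 5, and that of Stat2 ran from 0.09 without male 1 or female 7 to 0.25 without female 4 and 0.27 without male 2. That of Mx2 was 0.09 without male 2, 0.10 without male 1 or female 8 and 0.27 without female 3, and that of Ifit2 was 0.16 without female 3.

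The wider pathway was read from 8 lists that name 116 genes, of which 78 were on the array, with 97 probes. Of these probes, 75 were expressed, and 78 were tested. Between the sexes 0 passed in either direction, between the nostrils 0 passed, and between rats of 1 sex 4 passed (against the 2.79% of all tested probes). An unadjusted p under 0.05 between the sexes (limma) was reached by 25 pathway probes, 13 of them effectors, against 4724 of the 27574 tested probes. The median difference, female minus male, was -0.19 for the 34 tested effector probes and 0.01 for all. Probes are not replicates, and these counts carry no test. Of the 4 probes that passed between rats, 1 (Best5) also passed with slide as a random block, as did 0.537% of all tested probes. Interferon transcripts themselves were at the edge of detection. Of the 6 genes on the array, 0 were expressed. Ifna11 was detected on 2 arrays and Ifnk on 1, while Ifnb1, Ifng, Ifna1 and Ifna4 were well above background on none. Probes of the receptor chains Ifnar1 and Ifngr2 were detected on all 15 arrays.

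The 3 other genes past 1% between rats were Bst2, Jak1 and Ptpn11. Bst2 (tetherin), which holds budding viruses at the cell surface, ran from 3.99 in female 4 to 4.99 in male 2 (adjusted p = 0.00518). Jak1, a kinase of the interferon receptors, ran from 2.47 in female 8 to 3.17 in male 1 (adjusted p = 0.00232). Ptpn11, a phosphatase that dampens Stat signaling, ran from 3.66 in female 8 to 4.33 in male 2 (adjusted p = 0.00338). With slide as a random block their adjusted p were 0.0293, 0.0165 and 0.0209. Their second probes did not pass 1% (adjusted p = 0.0113 for Bst2, 0.0666 for Jak1 and 0.0407 for Ptpn11).

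Of the pathway genes, 3 are named for their signal. B2m, the light chain of class I antigen presentation molecules, stood at a mean of 8.94 with a range of 0.28 over the rats. Irf3, the factor that starts interferon production and is present before infection, stood at 8.21 with a range of 0.41. Ifi27l stood at 7.49 with a range of 0.54. Among the tested pathway genes, the third widest range after Best5 and Ifit1 was that of Zbp1, a sensor of Z-form nucleic acid, with 1.52 (adjusted p = 0.363). The median range was 0.82 for the 34 effector probes and 0.61 for all 78 pathway probes, beside 0.47 for all 27574 tested probes.

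Probes that ran like the members over the 15 arrays were sought among all tested probes with a gene symbol. With the mean of the members, the 10 highest Pearson r were those of Parp9 (0.81), Dusp1 (0.81), Rtp4 (0.76), Ddx58 (0.73), Lrg1 (0.71), Chit1 (0.71), Herc6 (0.68), Tinf2 (0.68), Irgm (0.68) and Wars (0.67). Over the 8 rats their r ran from 0.29 for Herc6 to 0.92 for Lrg1. Taken singly, the nearest probe to Irf7 was Ddx58 (0.81), the sensor RIG-I, whose other probe A_44_P145030 had r = 0.35, and the nearest to Irf1 was Il1r2 (0.88). The nearest to Stat2 was Mrps17 (0.91), to Mx2 H3f3b (0.89) and to Ifit2 Nfkbiz (0.85). These are descriptions over arrays that share rats and slides.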

How the data were processed

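Total RNA was labeled with Cy3 and hybridized to one-color Agilent whole rat genome arrays. The deposited scanner files hold the processed intensity of 45018 spots per array, which the authors extracted with Feature Extraction 9.5.1.1. A deposited table of ratio values served as an alternative: in it the authors divided each signal by its array median and then by its probe median.

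Spots with a software flag for non-uniformity or outlying replicates were dropped (61 to 175 on each array), spots of 1 probe were averaged, and signals were divided by the array median, raised to at least 0.1 of it and put on the log2 scale. Probes well above background on at least 7 arrays were tested with limma 3.58.1 in R 4.3.3 (lmFit, eBayes with trend, two-sided, Benjamini-Hochberg over all tested probes, 1%). Nostrils were averaged per rat for the sexes (27625 probes). Tests on single arrays used 27574 probes. Rat was the block for nostrils, a pairing that the labels give, and limma's F compared rats within a sex. The fits were tested on simulated data. The number of animals limits the precision. Members, gene lists and tests were chosen with earlier results of these data known. Pathway genes were named by signal (the 3 brightest, a rank used only to choose names, since probe levels are no relative abundance), by range over rats (the 3 widest) and by a call in any comparison. Current symbols came from RefSeq by accession for 52 of the 78 pathway genes.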

Additional observations from a re-analysis of the deposited data

How the results depend on the processing

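For the sexes and for the nostrils, scaling to the 75th percentile, normexp with quantile normalization, a floor of 0.01, the deposited ratio table, a filter of at least 11 arrays and leaving out single rats (rats 1 to 8 for the sexes, and the 7 with both nostrils for the nostrils) left 0 members past 1%. For the sexes this also held with no filter on dim probes, with slide as a fixed block, with 15 arrays taken as independent and by the methods' t-test. Without the rat block for nostrils (no replicate block) the count was 0 as well, and it was 0 when each rat was tested alone. Between rats of 1 sex, the count of 1 (Stat2) became 0 under normexp, the ratio table, slide as a random block and rats sharing a slide only, and it ran from 0 to 1 when single rats were left out. The cause was not tested. By the looser call of a positive and significant signal, 7 member probes were expressed in place of 5. That count stands without the share of all probes passing the looser call, so it does not set the members apart from other probes. The median range over the rats stayed between 0.54 and 0.57. The median r between members was -0.03, and moved to 0.21 after subtracting slide means and to 0.17 without the 2 rats farthest from the median. Mx1 and the upstream Ifit2 probe lay at the limit of detection, so differences in them below that limit were not detectable.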
